A study of Mus musculus with 17 samples.

Results

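The receptor for interleukin-10 (IL-10) was blocked with an antibody in mice given lipopolysaccharide (LPS), and the effect of the antibody on the RNA of hematopoietic stem and progenitor cells was measured 72 h later. The comparison held 6 of the 17 libraries of the series, chosen by their titles: 3 libraries from mice given LPS with the antibody and 3 libraries from mice given LPS alone, both collected at 72 h. The other groups were LPS alone at 24 h (3 libraries), LPS with the antibody at 24 h (3 libraries) and phosphate-buffered saline (PBS, 5 libraries labelled day 0). All mice were wild-type C57BL/6J, an inbred strain, and every injection was intraperitoneal. The amounts were given as 5 of LPS and 100 of antibody, in micrograms in the series' design text and in milligrams in the sample protocol, and neither unit was assumed. No group among these 17 libraries had the antibody without LPS. Each antibody effect below is therefore a difference between LPS with the antibody and LPS alone. The cells were sorted from bone marrow by flow cytometry and lysed for polyadenylated RNA. The labels give neither the gate nor the age, sex or number of mice behind a library. Nothing states that the 3 libraries of a group came from separate mice. The p-values therefore rest on a spread between libraries within groups, estimated over all 17 together, which may be technical.

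IL-10 is a cytokine that restrains inflammation. It binds a receptor made of IL10RA, the chain specific to IL-10, and IL10RB, a chain shared with other cytokines, and signals through the kinases JAK1 and TYK2 to the transcription factor STAT3. LPS, a component of the outer membrane of Gram-negative bacteria, is sensed by Toll-like receptor 4, whose adaptor MyD88 leads to NF-kB activation. Stem and progenitor cells are mostly quiescent in the healthy marrow, and during inflammation they can enter the cell cycle, raise their biosynthesis and turn their output toward myeloid cells.

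The 6 libraries held from 10516722 to 14805232 counts. Expression is given as CPM, counts scaled to a common library total with factors from the trimmed mean of M-values (TMM), for LPS libraries 1, 2 and 3 and antibody libraries 1, 2 and 3 in that order. Kit, the stem cell factor receptor that marks progenitors, lay between 247 and 589 CPM, and hemoglobin genes took at most 0.00213% of the counts. The antibody libraries did not resemble each other as closely as the LPS libraries did. On log2 CPM across genes, the correlation was between 0.965 and 0.982 among the LPS libraries and between 0.926 and 0.97 among the antibody libraries. Out of the 16 other libraries, antibody library 1 correlated best with the antibody library numbered 1 at 24 h (r = 0.976), and antibody library 3 with the antibody library numbered 3 at 24 h (r = 0.99, the highest of all pairs). The closest to antibody library 2 was PBS library 1 (r = 0.977). Each LPS library was closest to another LPS library of 72 h. Antibody library 1 also stood apart on the first principal component of the 6 libraries, with a score of 95.8 against scores from -36.1 to 16.5 in the other libraries. Whether a shared batch or exchanged samples lie behind these matches was not tested, and the group labels were used as given. The count over all genes and the medians of the main lists are therefore also given with antibody libraries 1 and 3 left out. No 2 libraries held identical counts.

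The antibody changed a large share of the measured genes at 72 h. Of 14920 genes tested, 2256 (15.1%) passed edgeR's quasi-likelihood test at an adjusted p below 0.05, and such genes are called higher or lower below: 1289 (8.64%) were higher with the antibody and 967 (6.48%) were lower. Most changes were moderate, with 252 genes at least 2-fold higher and 459 at least 2-fold lower. In 2201 of the 2256 genes the antibody libraries all lay on one side of the LPS libraries, as did 4958 (33.2%) of all genes tested, called or not. The genes that were higher outnumbered those that were lower (57.1% of calls) under TMM scaling, but not with upper-quartile scaling, where 42.4% of 2283 calls were higher and the median log2 change of all genes was -0.08 in place of 0.01. The count fell to 769 without LPS library 1, to 1193 without LPS library 2 and to 1417 (9.29% of the genes then tested, with 6.9% higher and 2.39% lower) without antibody library 1. It was 1123 when the 72 h groups were fitted alone, and 344 with terms for the library number (a replicate block). With antibody libraries 1 and 3 both left out, which leaves antibody library 2 alone on its side and lets the other groups supply the spread, 1 gene was called and 2338 had an unadjusted p below 0.05, against 4852 with all libraries. An arm of 1 library has little power, so below only the medians of that fit are given. Ribosomal protein genes took 10.3% to 16.2% of the counts in the LPS libraries and 9.25% to 9.92% in the antibody libraries, and the part of this shift in the calls was not tested.

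Genes for making ribosomes were higher with the antibody. Of 24 tested genes in a list of Myc and ribosome biogenesis genes, 18 were higher with the antibody and 1 was lower, against 8.64% and 6.48% of all genes, and their median log2 change was 0.83 against 0.01 for all genes. Ncl encodes nucleolin, an abundant nucleolar protein of ribosomal RNA transcription and processing. It was at 1301, 1323 and 1259 CPM in the LPS libraries and at 3229, 2919 and 3005 CPM in the antibody libraries. The groups were far apart and each was tight, with a log2 change of 1.24 ± 0.167 (SE; n = 3 per group; edgeR adjusted p = 0.00122). Nolc1, a nucleolar chaperone of small ribonucleoproteins, was at 139, 141 and 161 CPM with LPS and 415, 399 and 393 CPM with the antibody, again with no overlap (log2 change 1.45 ± 0.203, edgeR adjusted p = 0.00122). Gnl3 (nucleostemin, log2 change 1.11 ± 0.153) and Polr1b, a core subunit of RNA polymerase I (1.07 ± 0.164), completed the members with the smallest p-values. The genes of the small and large subunit processing machinery moved by like amounts: Heatr1 and Utp20 of the small subunit processome rose by 1.16 and 1.21 on the log2 scale, and Rrp12, Nop2 and Bop1 by 1.29, 1.22 and 1.09.

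Myc itself, the activator of ribosome biogenesis genes, was at 217, 219 and 232 CPM with LPS and 387, 385 and 305 CPM with the antibody. All 3 antibody libraries lay above the LPS libraries, but the log2 change of 0.69 ± 0.225 was close to the limit of calling (edgeR adjusted p = 0.0497) and was not called without LPS library 1, 2 or 3, or antibody library 1 or 2 (adjusted p from 0.0674 to 0.144). It also lost its call in 7 of 10 other settings (adjusted p from 0.00691 to 0.252 over the 10). Mxd4, which competes with Myc for its partner Max, was the member that fell, from 118, 112 and 92.3 CPM to 47.4, 53.6 and 41.7 CPM (log2 change -1.18 ± 0.245, edgeR adjusted p = 0.00658). Fbl, Rrp9, Max, Mxi1 and Mycn were not called. Npm1, nucleophosmin, was higher by 0.76 ± 0.198 but was not called without LPS library 1, or antibody library 3 (adjusted p from 0.0703 to 0.0861). Left out one at a time, the 6 libraries gave between 14 and 17 members called higher and 1 called lower, with a median between 0.87 and 0.94. With antibody library 2 alone the median was 0.88.

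The E-box CACGTG, a palindrome that Myc with Max and related factors can bind, was searched on both strands in RefSeq promoters (GRCm38.p6, from 250 bases before to 50 after each annotated start), which were matched for 10853 of the 14920 genes tested. It was present in 16.7% of the called higher genes (171 of 1023), in 10.2% of the called lower genes and in 11.5% of all genes tested. In the ribosome biogenesis list 6 of 19 genes with an entry held it. That list holds known Myc and ribosome biogenesis genes, so this share describes the list and not the antibody effect. Mxd4, the member that fell, also holds the E-box upstream of its start. Nop2, an RNA methyltransferase of the large subunit, shows where it lies in a member that rose. The stretch is chr6:125131763-125131882, plus strand, upstream of the start, with the E-box in capitals.
Nop2: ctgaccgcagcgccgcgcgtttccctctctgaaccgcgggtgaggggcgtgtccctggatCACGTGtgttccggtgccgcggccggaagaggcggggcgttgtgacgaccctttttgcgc
These letters are a sequence match and no binding was measured here.

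Genes of amino acid supply and transfer RNA charging were higher as well. In a list of 26 genes of the amino acid stress response and of aminoacyl-tRNA synthetases, 19 were higher and 0 were lower, with a median log2 change of 0.96. Slc7a5, the light chain of the large neutral amino acid transporter, was at 76.5, 77.3 and 91.5 CPM with LPS and 248, 239 and 259 CPM with the antibody. The 3 antibody libraries were within a narrow range far above the LPS libraries (log2 change 1.60 ± 0.204, edgeR adjusted p = 0.00122). Slc3a2, the heavy chain of the same transporter, rose by 0.95 ± 0.176, and Slc7a1, a carrier of cationic amino acids, by 1.38 ± 0.214. Asns, asparagine synthetase, was at 14.4, 27.1 and 10.3 CPM with LPS and 102, 54.1 and 71.9 CPM with the antibody, so it was among the 12 called genes of at least median expression with the greatest rise (log2 change 2.14 ± 0.422, edgeR adjusted p = 0.00524). Its lowest antibody library was well above its highest LPS library.

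The enzymes that make serine and one-carbon units were part of this rise. Mthfd2, the mitochondrial folate enzyme, went from 27.7, 32.1 and 35 CPM to 77.5, 63.2 and 110.4 CPM (log2 change 1.41 ± 0.258), and Psat1, of serine synthesis, rose by 0.98 ± 0.176. Phgdh, the first enzyme of that pathway, rose by 0.58 ± 0.182 but was not called without LPS library 1, 2 or 3, or antibody library 1 or 3 (adjusted p from 0.0579 to 0.108). Among the synthetases, which load amino acids onto transfer RNAs, Gars (glycine) rose from 113, 120.4 and 115 CPM to 251, 221 and 281 CPM (log2 change 1.11 ± 0.151, edgeR adjusted p = 0.00122) and Aars (alanine) by 1.03 ± 0.142. Wars (tryptophan), which interferon gamma is also known to induce, was at 243, 99.1 and 100.2 CPM with the antibody, and its call was lost without LPS library 2, or antibody library 1 (adjusted p from 0.0604 to 0.0651). Atf4, the transcription factor that drives this program and is controlled largely at translation, was at 174, 183 and 121 CPM with LPS and 313, 224 and 272 CPM with the antibody and was not called (log2 change 0.76 ± 0.249, edgeR adjusted p = 0.0516; 0.0405 without antibody library 2). Ddit3, Trib3 and Sesn2, which accompany strong activation of the stress pathway, were not called either. Leaving out 1 library at a time gave 15 to 19 members called higher and 0 lower, and antibody library 2 alone gave a median of 0.83.

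TGATGNAA, the core of the amino acid response element to which ATF4 with C/EBP partners can bind (both strands, N any base), was present in 9 of the 22 listed genes with a promoter entry (40.9%), against 2.82% of all genes tested and 3.03% of the genes called higher. The list was written around known members of this pathway, so this share describes the list and not the antibody effect. 3 of its called members are shown, upstream of the annotated start and outside annotated exons, with each match in capitals. They lie at chr3:50443615-50443739 (minus strand), chr2:119350992-119351116 (plus strand) and chr6:55037911-55038000 (plus strand).
Slc7a11: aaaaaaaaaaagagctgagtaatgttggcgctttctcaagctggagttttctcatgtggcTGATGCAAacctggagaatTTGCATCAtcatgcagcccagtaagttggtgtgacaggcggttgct
Chac1: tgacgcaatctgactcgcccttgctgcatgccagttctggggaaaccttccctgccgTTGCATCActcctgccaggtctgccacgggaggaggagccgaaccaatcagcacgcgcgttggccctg
Gars: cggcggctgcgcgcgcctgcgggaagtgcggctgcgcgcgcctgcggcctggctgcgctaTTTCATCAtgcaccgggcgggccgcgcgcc
Slc7a11, the cystine carrier, holds the core in both orientations within a short stretch. It was scarce, at 0.275, 0.761 and 0.293 CPM with LPS and 2.1, 2.99 and 5.59 CPM with the antibody (log2 change 2.99 ± 0.717, edgeR adjusted p = 0.0128), and was not called without LPS library 1 (adjusted p = 0.07). Chac1, which degrades glutathione, was also scarce, at 0.458, 0.423 and 0.219 CPM and 1.85, 1.21 and 2.4 CPM, with no overlap (log2 change 2.31 ± 0.462, edgeR adjusted p = 0.00551).

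**Figure D1:**
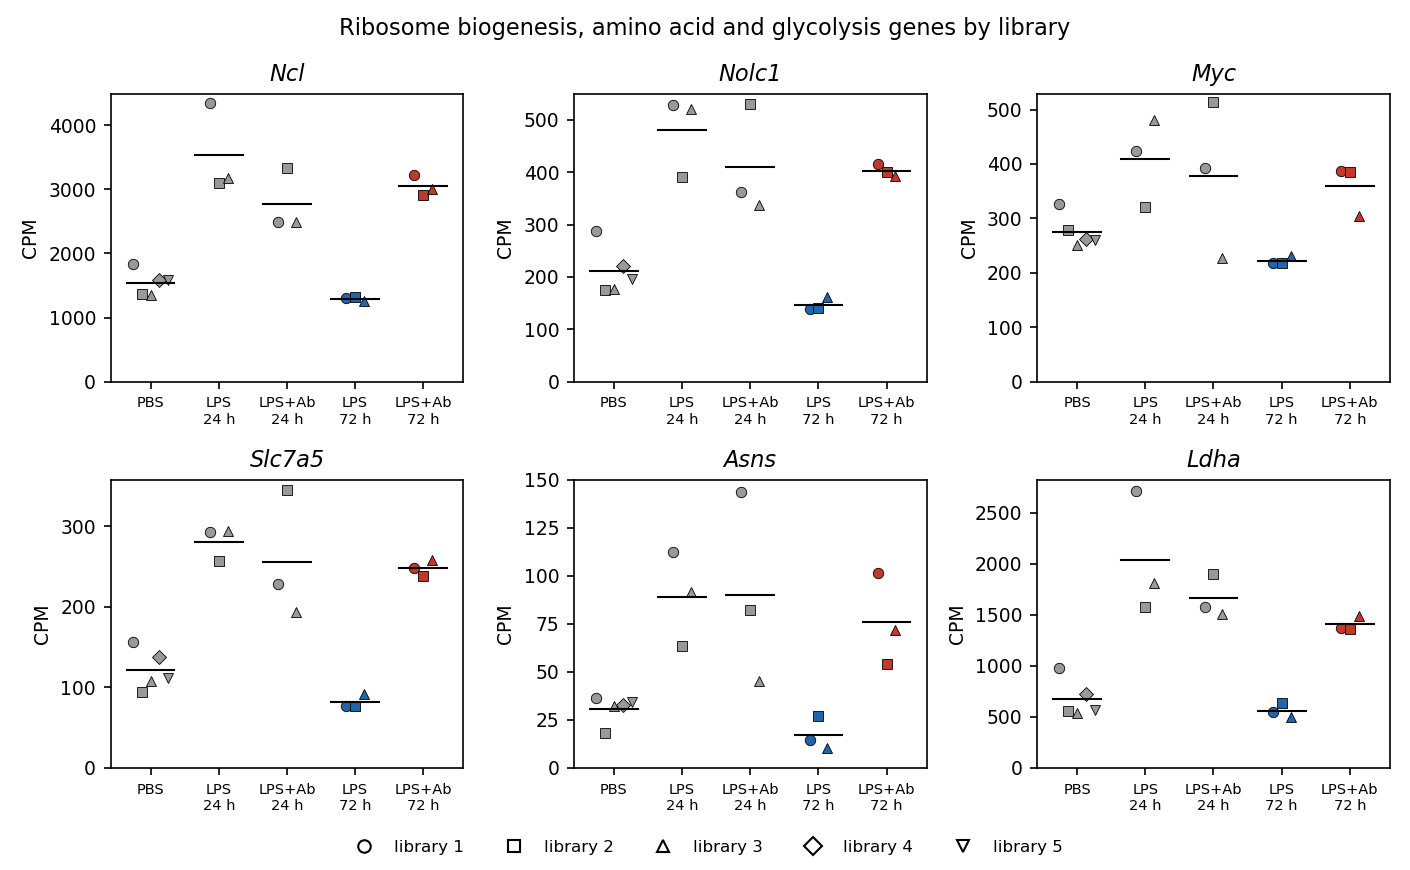
CPM (vertical axis, from 0) of 6 genes of ribosome biogenesis, amino acid supply and glycolysis in all 17 libraries, 1 symbol per library by its number and a line at each group mean. The LPS libraries of 72 h (blue) lie below all antibody libraries of 72 h (red) in every panel.

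Glycolysis genes were higher in a smaller share. Of 20 genes, 9 were higher and 1 was lower, with a median log2 change of 0.64. Ldha, the lactate dehydrogenase subunit that favours lactate formation, was at 551, 636 and 494 CPM with LPS and 1373, 1358 and 1486 CPM with the antibody (log2 change 1.33 ± 0.233, edgeR adjusted p = 0.00293). Slc16a3, a lactate exporter, rose by 1.37 ± 0.252, and Pfkp, a phosphofructokinase, by 1.12 ± 0.241. Ldhb, the subunit that favours the reverse reaction, was the member called lower, at 40.9, 35 and 30.6 CPM and then 7.74, 25.2 and 14.1 CPM (log2 change -1.18 ± 0.34), and it was not called without LPS library 1 or 2, or antibody library 1 or 3 (adjusted p from 0.0709 to 0.113). Pkm (log2 change 0.69 ± 0.161) was not called without LPS library 1 (adjusted p = 0.0584), nor was Eno1 (1.05 ± 0.262) without LPS library 1, or antibody library 3 (adjusted p from 0.0525 to 0.078). The number called higher was 4 without LPS library 1 and 6 without antibody library 3, and the median stayed between 0.62 and 0.73 whichever library was left out (0.51 with antibody library 2 alone).

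Genes of protein folding in the endoplasmic reticulum gave fewer calls: 5 of 20 were higher and 0 lower, with a median of 0.54. Hspa5, the chaperone BiP, was at 583, 729 and 719 CPM with LPS and 1054, 1245 and 2053 CPM with the antibody, and Hyou1, another chaperone, at 202, 237 and 296 CPM and 338, 466 and 669 CPM. In both genes antibody library 3 was the highest. Hspa5 (log2 change 1.10 ± 0.306, edgeR adjusted p = 0.0259) was not called without LPS library 1 or 2, or antibody library 3 (adjusted p from 0.0644 to 0.113), and Hyou1 (1.00 ± 0.299) was not called without LPS library 1 or 2, or antibody library 3 (adjusted p from 0.101 to 0.143). The list had 0 calls without LPS library 1, 1 without LPS library 2, 1 without antibody library 3 and 7 without antibody library 1. Of 20 p53 targets 4 were higher and 1 was lower (median 0.59; 2 and 1 with upper-quartile scaling), with Aen, an apoptosis-linked nuclease, up by 1.15 ± 0.216 and Sesn1, a stress-induced inhibitor of growth signalling, at -1.12 ± 0.25. That count was 1 higher without LPS library 1, 2 without LPS library 2 and 2 without antibody library 1, while Sesn1 stayed the 1 lower member. Without antibody library 2 it was 6 higher. In the iron and heme list 2 of 22 were higher and 0 lower, near the 8.64% higher over all genes. The count was 1 higher with DESeq2's size factors, 1 higher and 1 lower with upper-quartile scaling, and 0 without LPS library 1, LPS library 2 or antibody library 1. It was 3 higher without antibody library 2 and 4 higher without antibody library 3. Tfrc, the transferrin receptor, was one of the 2 called higher, at 94.8, 86.7 and 102 CPM with LPS and 424, 181 and 222 CPM with the antibody (log2 change 1.55 ± 0.469). It was not called without LPS library 1, 2 or 3, or antibody library 1 (adjusted p from 0.0633 to 0.145).

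**Figure D2:**
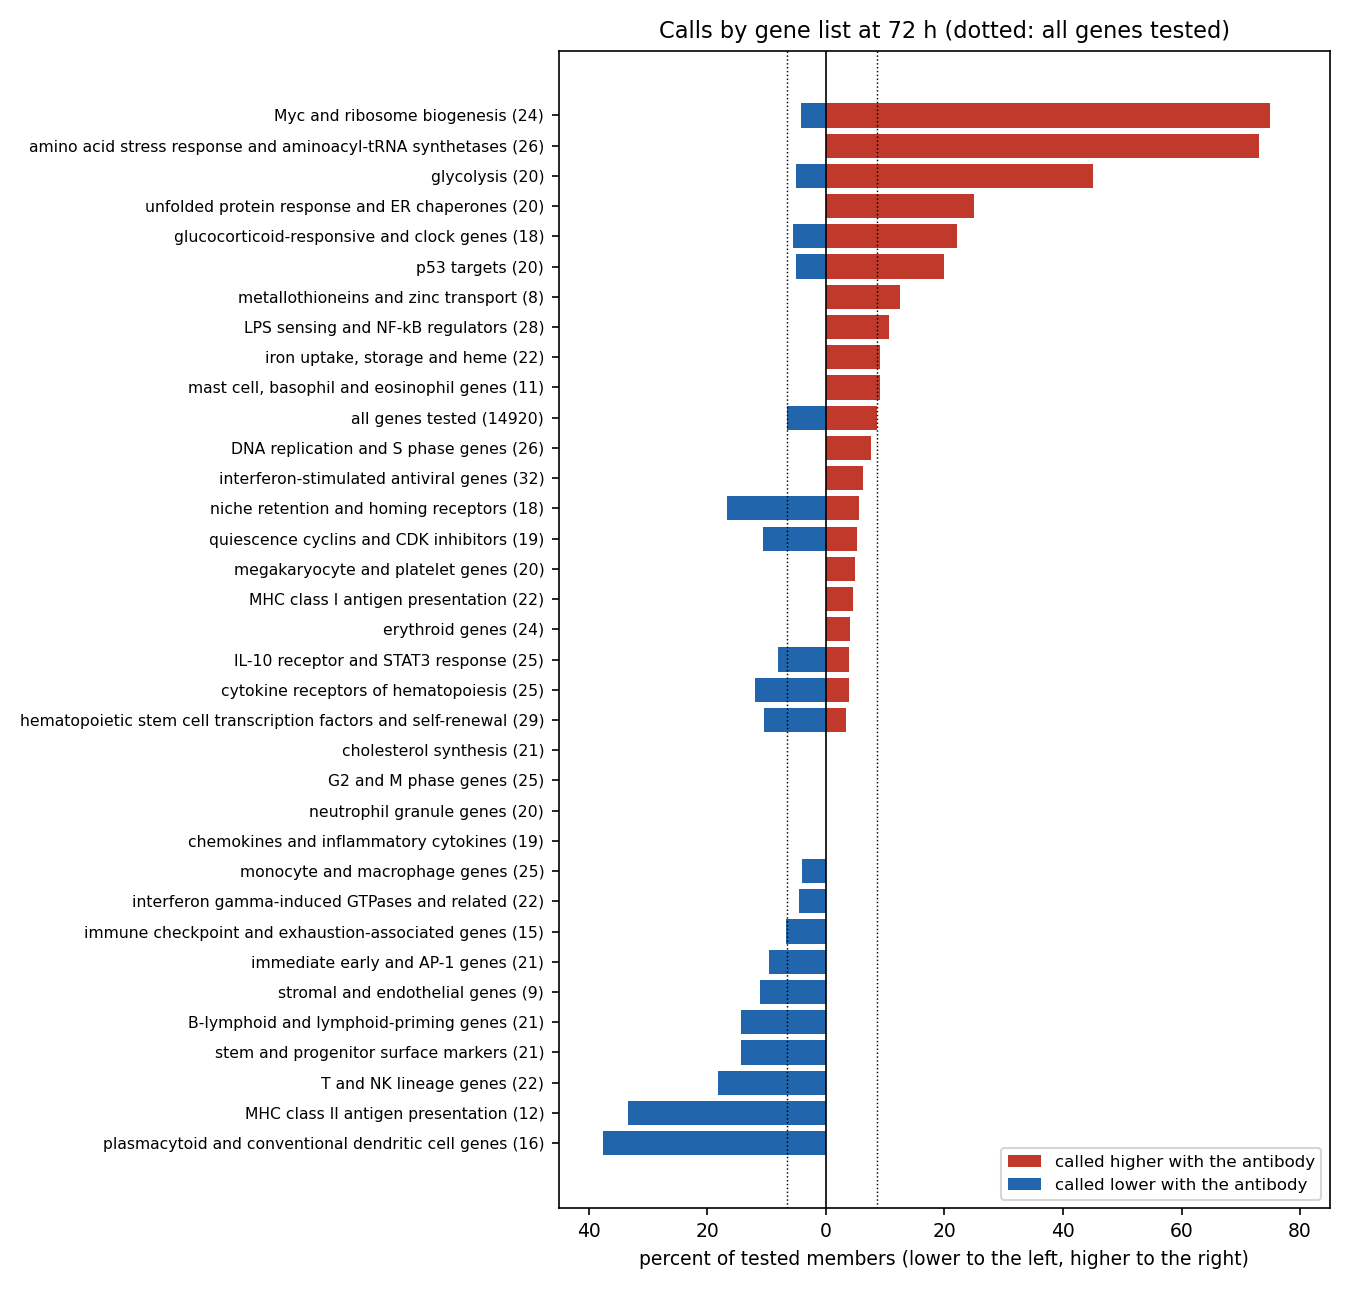
Share of each gene list called higher (red, right) or lower (blue, left) with the antibody at 72 h, as a percent of the tested members, whose number stands in parentheses. The dotted lines are the shares over all 14920 genes (8.64% higher, 6.48% lower), and the lists of ribosome biogenesis and amino acid genes reach farthest to the right.

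The share of cell cycle genes called was near or below that of all genes (8.64% higher, 6.48% lower). Of 26 genes of DNA replication and S phase, 2 were higher and 0 lower (median 0.19). The number higher was 0 without LPS library 1 and 1 without LPS library 2, antibody library 3 or with upper-quartile scaling. It was 3 without LPS library 3, antibody library 1 or antibody library 2. Of 25 genes of G2 and M phase 0 were called by edgeR (median -0.12, 2 at an unadjusted p below 0.05). With upper-quartile scaling 1 of these was lower. Ccne1, cyclin E1 of the entry into S phase, went from 13.7, 16.1 and 20.1 CPM to 36.4, 28.6 and 46.3 CPM (log2 change 1.15 ± 0.27, edgeR adjusted p = 0.0116), a call that was lost without LPS library 1 (adjusted p = 0.0666). Mcm2, of the replicative helicase, was at 0.49 ± 0.142 and was not called without LPS library 1 or 2, or antibody library 3 (adjusted p from 0.0641 to 0.111), nor with upper-quartile scaling. Among the cyclins and inhibitors of quiescence, 1 of 19 was higher and 2 were lower, a total of 1 without LPS library 2, and again near the share over all genes. Btg2, an antiproliferative gene, fell from 49.8, 48.3 and 40.5 CPM to 17.7, 18.7 and 14.6 CPM with no overlap (log2 change -1.44 ± 0.242, edgeR adjusted p = 0.00229). Cdkn2c, a CDK inhibitor of G1, was at -1.07 ± 0.312 and was not called without LPS library 1, 2 or 3, or antibody library 1 or 2 (adjusted p from 0.0591 to 0.122), and Ccnd2, cyclin D2, was at 1.01 ± 0.253 and was not called without LPS library 2, or antibody library 1 (adjusted p from 0.0626 to 0.0681).

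A part of the dendritic cell genes fell with the antibody. Of 16 genes of plasmacytoid and conventional dendritic cells, 6 were lower and 0 higher, with a median log2 change of -1.23. Their summed level was 1253 to 1655 CPM in the LPS libraries and 692 to 730 CPM in the antibody libraries, with no overlap. Irf8, the transcription factor of dendritic cell and monocyte progenitors, was at 544, 423 and 719.8 CPM with LPS and 192, 151 and 265 CPM with the antibody (log2 change -1.47 ± 0.363, edgeR adjusted p = 0.0147), a call that was lost without antibody library 1 or 2 (adjusted p from 0.0524 to 0.0546). Itgax, the integrin CD11c, was at 38.9, 25.6 and 40.1 CPM and 5.55, 10.2 and 10.7 CPM, and kept its call without any single library (log2 change -1.98 ± 0.343, edgeR adjusted p = 0.00272). Cox6a2, a respiratory chain subunit known from plasmacytoid dendritic cells, changed by -2.39 ± 0.555, and Batf3, a factor of cross-presenting dendritic cells, by -1.97 ± 0.507. Both were lost only without LPS library 1 (adjusted p = 0.0707 and 0.0696). Tcf4, the plasmacytoid lineage factor, was at -0.58 ± 0.178 and was not called without LPS library 1, 2 or 3, or antibody library 1, 2 or 3 (adjusted p from 0.0687 to 0.126). Siglech, Clec9a, Xcr1 and Ly6d were not called. The number called was 2 without LPS library 1 and 3 without antibody library 1, with medians of -0.78 and -1.07, and antibody library 2 alone gave a median of -0.95. In these bulk libraries fewer cells of a type and less RNA per cell cannot be told apart.

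The class II antigen presentation genes were called in 4 of 12 cases, all lower (median -0.97; 7 lower with upper-quartile scaling, and a median of -1.24 with antibody library 2 alone), and the 4 genes encode the chains that load peptides or inhibit loading. H2-DMa, a chain of the molecule that exchanges peptides on class II, was at 256, 190.4 and 181 CPM with LPS and 93.6, 95.5 and 76.3 CPM with the antibody (log2 change -1.24 ± 0.189, edgeR adjusted p = 0.00157), with a wide gap between the groups. H2-Oa and H2-Ob, the chains of the inhibitor of that exchange, changed by -1.37 ± 0.23 and -2.004 ± 0.494. H2-Oa was called whichever library was left out, and H2-Ob, at 7.15, 52.7 and 16.9 CPM in the antibody libraries, was not called without LPS library 1, or antibody library 3 (adjusted p from 0.052 to 0.0818). H2-DMb1 changed by -0.85 ± 0.207 and was not called without LPS library 1, or antibody library 2 or 3 (adjusted p from 0.05 to 0.0659). The antigen-presenting chain H2-Aa itself was at 219, 138 and 328 CPM with LPS and 188, 73.3 and 95.8 CPM with the antibody. Those groups overlapped and it was not called (log2 change -0.94 ± 0.412, edgeR adjusted p = 0.128). The list had 6 lower members without antibody library 1 (median -1.34), 2 without LPS library 1 and 2 without antibody library 3.

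In the lymphoid lists most changes were negative. In the B-lymphoid and lymphoid-priming list, 20 of 21 genes had a negative change (median -0.74), 3 were called lower and 0 higher, against 6.48% lower over all genes. Notch1, the receptor of T lineage entry, was at 226, 186 and 195 CPM with LPS and 83, 117 and 114 CPM with the antibody (log2 change -0.95 ± 0.271, edgeR adjusted p = 0.0288), and was not called without LPS library 1, 2 or 3, or antibody library 1 (adjusted p from 0.0512 to 0.12). Satb1, a chromatin organizer of lymphoid priming (-1.04 ± 0.303), was not called without LPS library 1 or 2, or antibody library 1, 2 or 3 (adjusted p from 0.0503 to 0.127), and Cd22, a B cell lectin (-2.14 ± 0.662), was not called without LPS library 1 or 3, or antibody library 1 or 2 (adjusted p from 0.105 to 0.132). Dntt, the terminal transferase of early lymphoid progenitors, was at 1354, 988 and 421 CPM with LPS and 19.7, 421 and 259 CPM with the antibody. The lowest LPS library and the highest antibody library were nearly equal, the spread within both groups was wide, and it was not called (log2 change -1.98 ± 0.924, edgeR adjusted p = 0.149). The list's median was 0.02 without LPS library 1, which carried the highest Dntt, and -0.03 with antibody library 2 alone, and 0 members were called without LPS library 1 or antibody library 1 and 1 without LPS library 2.

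Of 22 T and NK lineage genes 4 were lower and 0 higher (median -1.29; -1.15 with antibody library 2 alone), against 6.48% lower over all genes, and their summed level was 217 to 363 CPM with LPS and 107 to 225 CPM with the antibody. Lck, the kinase of T cell receptor signalling, went from 60.8, 35.4 and 18.4 CPM to 9.92, 22.3 and 12.9 CPM (log2 change -1.35 ± 0.383), with antibody library 2 above LPS library 3 in that gene, and it was not called without LPS library 1 or 2, or antibody library 1 or 3 (adjusted p from 0.0592 to 0.177). Tcf7, the T lineage factor TCF1, was at -1.09 ± 0.335 and was not called without LPS library 1 or 2, or antibody library 1 or 2 (adjusted p from 0.0828 to 0.182). Without LPS library 1 the list had 0 calls. It had 1 call without LPS library 2, antibody library 1 or antibody library 3, and 2 without antibody library 2. Without LPS library 3 it had 6, all lower. T and NK cells, B cells and dendritic cells are cell types that a marrow sort can contain, and the part of such cells in these changes was not tested.

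**Figure D3:**
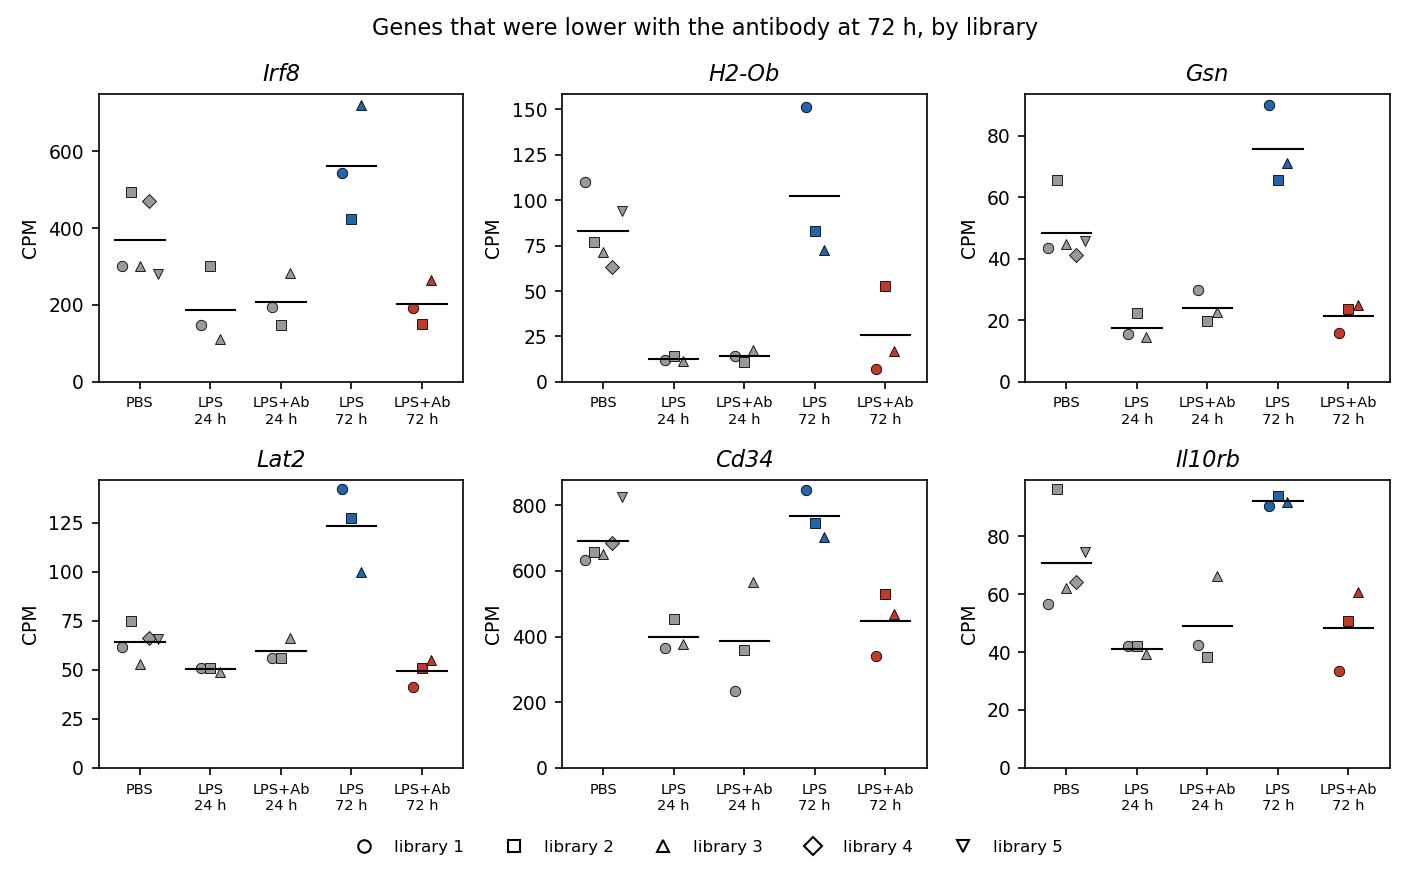
CPM (vertical axis, from 0) of 6 genes called lower with the antibody at 72 h in all 17 libraries, 1 symbol per library by its number and a line at each group mean. The LPS libraries of 72 h (blue) lie above the antibody libraries of 72 h (red) in every panel.

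Beyond these lists, the genes with the smallest p-values and the greatest falls were a mixed set. Mirt1, a long noncoding RNA at chr19:53443230-53464796 (GRCm38, GENCODE M21, minus strand), had the smallest p-value of all genes. It was at 33.4, 28.9 and 39.7 CPM with LPS and 6.48, 8.87 and 7.85 CPM with the antibody, and it was called under each of the 6 omissions (log2 change -2.14 ± 0.202, edgeR adjusted p = 0.00023). 4833407H14Rik, which lies inside it on the opposite strand, changed alike (log2 change -2.13 ± 0.301). Whether the counting used strand is not given in the sources used here, so reads of these genes cannot be told apart. Gsn, gelsolin, which severs actin filaments, fell from 89.98, 65.7 and 71.1 CPM to 15.7, 23.8 and 25.1 CPM (log2 change -1.81 ± 0.236, edgeR adjusted p = 0.00122), and Lat2, an adaptor of immune receptor signalling in myeloid and B cells, from 142, 128 and 100.1 CPM to 41.5, 51.2 and 55.2 CPM (-1.32 ± 0.153). Both were called under each of the 6 omissions.

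Others of the greatest falls follow, with a pair of genes from the niche and homing list. Itgb7, the beta 7 integrin of gut homing, was at 181, 124 and 175 CPM with LPS and 46.7, 41.3 and 67.1 CPM with the antibody (log2 change -1.63 ± 0.233). From that list Selplg, the selectin ligand PSGL-1, fell by 0.84 ± 0.169 on the log2 scale and Itgam, the integrin CD11b, by 1.33 ± 0.292. Pld4, a nuclease of endosomes in dendritic and B cells, was at 123, 131 and 192 CPM and 39, 29 and 63.4 CPM (-1.76 ± 0.344), and Sdc1, syndecan-1, at 82.2, 55.4 and 45.5 CPM and 5.21, 21.9 and 13.3 CPM (-2.18 ± 0.507), which was lost without LPS library 1 (adjusted p = 0.0562). Smim24 (-1.98 ± 0.274), Fbxw4 (-1.59 ± 0.238), Grcc10 (-1.69 ± 0.281), H2az2 (-1.58 ± 0.272), a histone variant gene, and Crip1 (-1.60 ± 0.348) had calls that no single omission ended. The giant scaffold gene Ahnak (-1.85 ± 0.491) was not called without LPS library 3, or antibody library 1 or 2 (adjusted p from 0.0647 to 0.0851), Ypel3 (-1.62 ± 0.387) was not called without LPS library 1 (adjusted p = 0.0649), and Epb41l4b (-1.57 ± 0.431) was not called without LPS library 1 or 2, or antibody library 1 (adjusted p from 0.0534 to 0.113).

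Among the genes that rose most, Snhg3, a host of small nucleolar RNAs, was at 11.2, 19.3 and 10.5 CPM with LPS and 50.2, 57.6 and 30.4 CPM with the antibody (log2 change 1.75 ± 0.284, edgeR adjusted p = 0.00194). Gm17300 overlaps it on the opposite strand and gave nearly the same values, so again the reads cannot be told apart. The smallest p-values among the rising genes belonged to genes of varied roles: Iars2, the mitochondrial isoleucine synthetase (0.91 ± 0.111), Orc2 of the replication origin complex (1.02 ± 0.128), Psmd1 of the proteasome (0.97 ± 0.122), Plaa, a ubiquitin-binding protein (0.92 ± 0.116), and Twf1, an actin regulator (0.91 ± 0.114), each with an edgeR adjusted p of 0.00122 and each called under every one of the 6 omissions. Tuba8, an alpha tubulin, was at 31, 45.6 and 17.5 CPM with the antibody (log2 change 1.93 ± 0.507) and was not called without LPS library 1, 2 or 3, or antibody library 2 (adjusted p from 0.0569 to 0.0592). Serpine2, a protease inhibitor, was at 51.6, 41.8 and 21 CPM (1.86 ± 0.497) and was not called without LPS library 1 or 2, or antibody library 1 (adjusted p from 0.0684 to 0.0954).

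In the remaining genes of the greatest rise antibody library 1 was by far the highest. Cfb, complement factor B, was at 3.12, 1.94 and 2.78 CPM with LPS and 321, 14.2 and 4.38 CPM with the antibody, and its log2 change of 5.43 ± 1.71 became 1.86 without antibody library 1. It was not called without LPS library 1, 2 or 3, or antibody library 1 (adjusted p from 0.0937 to 0.43). Gm20547, which overlaps it on the same strand, had like values, and their reads cannot be told apart. Per1, a clock gene induced by glucocorticoids, was at 24.7, 25.1 and 22.8 CPM and 156, 58.7 and 39.5 CPM (1.80 ± 0.534), Rab11fip1, of endosome recycling, at 16.1, 15.9 and 17.2 CPM and 131, 24.6 and 20.1 CPM (1.84 ± 0.571), and Spire1, an actin nucleator, at 7.33, 5.16 and 8.12 CPM and 57.7, 19.99 and 9.05 CPM (2.07 ± 0.672). Without antibody library 1 none of the 3 was called (edgeR adjusted p = 0.186, 0.436 and 0.277), and each was also lost without any 1 of the LPS libraries (for Per1 adjusted p = 0.109, 0.0909 and 0.0723).

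The interferon genes show the same dependence on 1 library. Of 32 interferon-stimulated antiviral genes 31 had a positive change, with a median log2 change of 1.58, but 2 were called higher and 0 lower, and the median was 0.16 with 0 called once antibody library 1 was left out (0.58 with antibody library 2 alone; 1 called with upper-quartile scaling). Their summed level was 1123 to 1422 CPM with LPS and 6516, 1736 and 1552 CPM in antibody libraries 1, 2 and 3. Isg15, the ubiquitin-like interferon-stimulated protein, was at 9.99, 6.59 and 4.32 CPM with LPS and 170.5, 15.5 and 4.74 CPM with the antibody, and it was not called (log2 change 3.20 ± 1.15, edgeR adjusted p = 0.0711). Ifitm3, a membrane protein that restricts virus entry, was called, at 192, 185 and 148 CPM and 1126, 337 and 291 CPM (log2 change 1.74 ± 0.52, edgeR adjusted p = 0.0356). All its antibody libraries lay above the LPS libraries, but it was not called without LPS library 1, 2 or 3, or antibody library 1 (adjusted p from 0.0801 to 0.221). Eif2ak2, the RNA-activated kinase PKR, was at 55.5, 46.8 and 66.8 CPM and 171, 94.6 and 66.7 CPM, with antibody library 3 level with LPS library 3 (0.97 ± 0.287) and was not called without LPS library 1 or 2, or antibody library 1 (adjusted p from 0.109 to 0.165). The list had 0 calls without LPS library 1 or 2 as well and 1 without LPS library 3, but 12 members called higher without antibody library 3 and 6 without antibody library 2.

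The stretch upstream of Isg15 holds 3 overlapping matches to the core of the interferon-stimulated response element, searched on both strands and shown in capitals as the minus-strand gene reads (chr4:156200819-156200956).
Isg15: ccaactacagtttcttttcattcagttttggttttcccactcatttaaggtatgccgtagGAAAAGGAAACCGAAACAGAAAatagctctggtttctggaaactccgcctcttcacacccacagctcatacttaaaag
This core was present in 14 of 25 listed antiviral genes with a promoter entry (56%), in 3.97% of all genes tested and in 3.23% of the genes called higher with the antibody. The list holds known interferon-stimulated genes, so its share describes the list and not the antibody effect.

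For the genes induced by interferon gamma, the summed level of 22 genes was 1103 to 1493 CPM with LPS and 8879, 921 and 809 CPM in antibody libraries 1, 2 and 3. Gbp2, a guanylate-binding protein, was at 73.2, 39.9 and 37.6 CPM with LPS and 1437, 25 and 19.9 CPM with the antibody, and Cxcl9, a chemokine of the same response, at 13.9, 2.62 and 3.66 CPM and 774, 4.48 and 0.424 CPM. Antibody library 1 was the highest of the 6 in both, and antibody library 3 was the lowest. Neither was called (Cxcl9 was called without antibody library 3 (adjusted p = 0.0493)), and without antibody library 1 their log2 changes turned from 3.30 to -1.12 and from 5.28 to -1.47. For Cxcl10, called without antibody library 2 (adjusted p = 0.0315) or without antibody library 3 (adjusted p = 0.0265), the change also turned (9.53, 1.69 and 0.585 CPM with LPS, 429, 3.74 and 0.849 CPM with the antibody, 5.23 and then -0.75). Of the list 0 members were called higher and 1, Irf8, lower. The list had 2 lower with upper-quartile scaling. The median of 2.42 became -0.18 without antibody library 1, with 0 called, while 3 were called higher without antibody library 2 and 7 higher without antibody library 3. The antibody library numbered 1 at 24 h had the same genes high: Gbp2 was at 914, 41.9 and 24.6 CPM and Cxcl9 at 435, 18 and 0.407 CPM in the antibody libraries 1, 2 and 3 of 24 h. Of 19 chemokine and cytokine genes 0 were called by edgeR at 72 h (1 lower with upper-quartile scaling, 8 at an unadjusted p below 0.05).

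**Figure D4:**
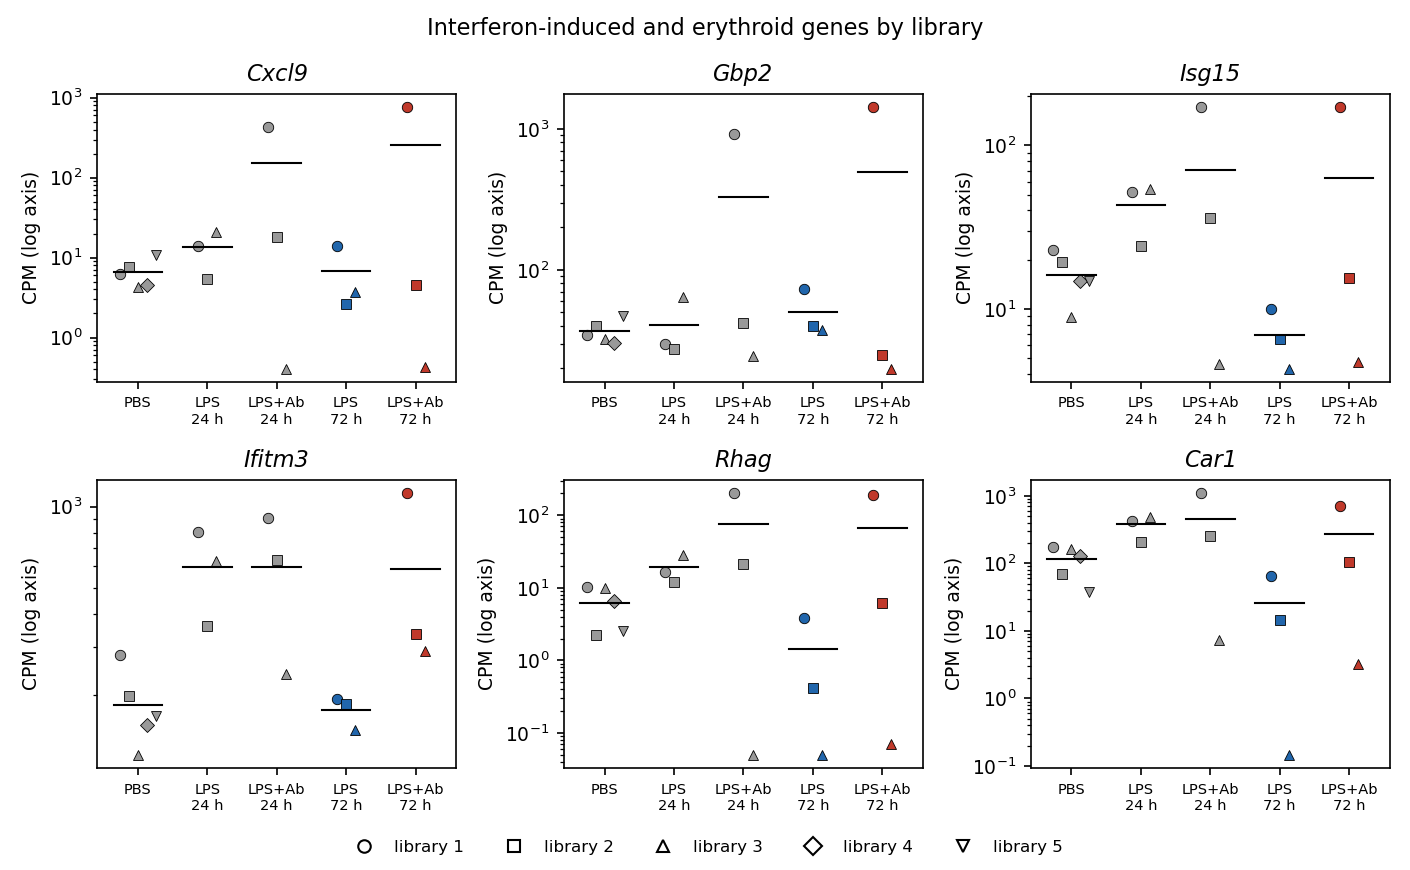
CPM on a log axis of 4 interferon-induced and 2 erythroid genes in all 17 libraries, 1 symbol per library by its number and a line at each group mean, with values under 0.05 CPM drawn at 0.05. Antibody library 1 (red circle) is far above the other 72 h libraries, and the antibody library 1 of 24 h (grey circle) is at a similar height.

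Erythroid and macrophage genes also differed between the antibody libraries. All 24 erythroid genes had a positive change (median 2.09; 0.30 without antibody library 1), 1 (Tfrc) was called higher and 0 lower. Without any 1 of the LPS libraries or antibody library 1 none was called, and without antibody library 3 there were 2. Their summed level was 234 to 556 CPM with LPS and 2567, 613 and 366 CPM in antibody libraries 1, 2 and 3. Rhag, a red cell membrane protein, was at 3.85, 0.423 and 0 CPM with LPS and 191, 6.17 and 0.0707 CPM with the antibody, and Car1, carbonic anhydrase 1, at 64.1, 14.6 and 0.146 CPM and 702, 104 and 3.18 CPM. Neither was called, and in both the libraries numbered 1 were the highest of their group and those numbered 3 the lowest. Of 25 monocyte and macrophage genes 1, Csf1r, was called lower and 0 higher. Their summed level was lower in every antibody library (1494, 1673 and 1299 CPM) than in any LPS library (1708, 1967 and 3062 CPM), while the median log2 change of the list was positive. That median of 1.86 turned to -0.50 without antibody library 2, and 0 were called without LPS library 3, antibody library 1 or antibody library 2, but 2 without antibody library 3. Of 11 mast cell, basophil and eosinophil genes 1 was called higher: Ms4a2, a chain of the IgE receptor, was at 3.67, 3.63 and 2.78 CPM with LPS and 55, 19.6 and 6.36 CPM with the antibody (3.01 ± 0.916), and was not called without LPS library 1, 2 or 3, or antibody library 1 (adjusted p from 0.0874 to 0.175). Of 20 neutrophil granule genes 0 were called by edgeR (median -0.48; 1 at an unadjusted p below 0.05). Of 20 megakaryocyte genes 1 was higher (0 higher and 1 lower with upper-quartile scaling), with 0 called without LPS library 1 or 2 and 2 without LPS library 3, antibody library 2 or antibody library 3. Of 9 stromal and endothelial genes 1 was lower, whichever library was left out. Over all genes 8.64% were higher and 6.48% lower.

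Il10rb, the shared chain of the targeted receptor, was itself lower in RNA. It was at 90.3, 93.8 and 91.7 CPM with LPS and 33.6, 50.5 and 60.5 CPM with the antibody. The LPS libraries were nearly equal and every antibody library lay below them (log2 change -0.93 ± 0.233, edgeR adjusted p = 0.0157), but the call was lost without LPS library 1, or antibody library 1 (adjusted p from 0.0545 to 0.0728). Il10ra, the chain specific to IL-10, was at 84.5, 78.3 and 87 CPM with LPS and 59.9, 27.7 and 32.8 CPM with the antibody. Here too the groups did not overlap, and it was not called (log2 change -1.05 ± 0.356, edgeR adjusted p = 0.057). It was called without antibody library 1 (log2 change -1.42, edgeR adjusted p = 0.0292), with upper-quartile scaling (log2 change -1.14), with the DESeq2 and voom tests, among genes above the median expression alone and without LPS library 1 of 24 h. An RNA level does not measure whether the receptor was blocked. Il10 itself had 0 or 1 counts in each of the 6 libraries and was not tested.

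Of 25 genes of the IL-10 receptor and STAT3 response, 1 was higher and 2 were lower (median 0.27; 0 higher and 3 lower with upper-quartile scaling), a share near the 15.1% called over all genes, with 0 called without LPS library 1, 1 without antibody library 1 and 5 without antibody library 2. Stat3 was at 161, 152 and 157 CPM with LPS and 297, 172 and 191 CPM with the antibody, with no overlap but no call (log2 change 0.49 ± 0.183, edgeR adjusted p = 0.0804), except without antibody library 2 (adjusted p = 0.0301). Socs3, the feedback inhibitor that STAT3 induces, was at 12.2, 10.6 and 6.58 CPM and 25.7, 11 and 19.2 CPM, with antibody library 2 inside the LPS range, and was not called (0.93 ± 0.396). Zfp36, which destabilizes cytokine messenger RNAs and is a known target of IL-10 signalling, was lower (log2 change -1.09 ± 0.333) and was not called without LPS library 1, or antibody library 1, 2 or 3 (adjusted p from 0.0749 to 0.284). Sbno2, a corepressor of the same pathway, was higher by 0.56 ± 0.179 and was not called without LPS library 1 or 2, or antibody library 1 or 3 (adjusted p from 0.111 to 0.164). On the side of LPS sensing, 3 of 28 genes were higher and 0 lower (2 and 2 with upper-quartile scaling), near the 8.64% higher over all genes. It was 1 higher and 0 lower without LPS library 1 or 2, and 1 higher and 1 lower without antibody library 1. Without LPS library 3 it was 4 higher and 0 lower. The adaptor Myd88 went from 50.8, 56.5 and 54.7 CPM to 96.3, 76.8 and 119 CPM (log2 change 0.85 ± 0.185, edgeR adjusted p = 0.00809), a call that no single omission ended. Irak3, a brake on the same pathway (0.63 ± 0.166), was not called without LPS library 1 or 2, or antibody library 1 (adjusted p from 0.0577 to 0.0958), and Traf6 (0.58 ± 0.171) was not called without LPS library 1 or 2, or antibody library 1 (adjusted p from 0.097 to 0.128).

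Of 29 stem cell transcription factors and self-renewal genes, 3 were lower and 1 higher (median -0.37), a share near the 15.1% called over all genes. Hlf, which marks long-term stem cells, was at 137, 79.8 and 62.8 CPM with LPS and 20.9, 84.5 and 41.9 CPM with the antibody, with overlap between the groups and no call (log2 change -0.93 ± 0.5, edgeR adjusted p = 0.212). Mecom was at 19.2, 15 and 11.1 CPM and 5.55, 15.2 and 8.7 CPM and Meis1 at 101, 77.8 and 61.4 CPM and 42, 64.6 and 45.6 CPM, and neither was called. Hoxa7 (-0.68 ± 0.205), Hoxa5 (-1.25 ± 0.381) and Lyl1 (-0.74 ± 0.234) were called lower and Bmi1 higher (0.49 ± 0.134). Hoxa7 was not called without LPS library 1 or 2, or antibody library 1, 2 or 3 (adjusted p from 0.0789 to 0.122), Hoxa5 without LPS library 1 or 2, or antibody library 1 or 3 (adjusted p from 0.0782 to 0.146), Lyl1 without LPS library 1 or 2, or antibody library 1 or 2 (adjusted p from 0.0624 to 0.175) and Bmi1 without LPS library 1 or 2, or antibody library 2 (adjusted p from 0.0592 to 0.0867). The list had 0 calls without LPS library 1 or 2, 1 without antibody library 1 or 2, and 2 without antibody library 3. Without LPS library 3 it had 1 higher and 4 lower. With antibody library 2 alone the list's median was 0.05, and that library was the one closest to a PBS library.

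On the cell surface, 3 of 21 stem and progenitor markers were lower and 0 higher (median -0.39), a total near the 15.1% called over all genes. Cd34 was at 848, 747 and 705 CPM with LPS and 339.8, 530.3 and 468 CPM with the antibody (log2 change -0.78 ± 0.243, edgeR adjusted p = 0.042). The groups did not overlap, and the call was lost without LPS library 1, 2 or 3, or antibody library 1 or 3 (adjusted p from 0.0592 to 0.173). Cd27, a marker of progenitors with lymphoid potential, was at -1.20 ± 0.324 and was not called without LPS library 1 or 2, or antibody library 1 (adjusted p from 0.0572 to 0.0914). Kit and Ly6a (Sca-1), commonly used to sort these cells, were not called. Ly6a, which interferon induces, was at 86.4, 59.2 and 36.3 CPM with LPS and 632, 84.9 and 64.7 CPM with the antibody (2.11; 0.35 without antibody library 1), and Kit at 347, 295 and 359.8 CPM and 589, 334 and 247 CPM. Procr, the endothelial protein C receptor of long-term stem cells, was at 16.5, 10.1 and 5.34 CPM and 5.97, 5.98 and 6.44 CPM and was not called, except without LPS library 3 (adjusted p = 0.035). Flt3, the receptor of multipotent and lymphoid progenitors, was at 619, 472 and 399 CPM and 71.4, 312 and 196 CPM. Every antibody library lay below the LPS libraries and the test did not call it (log2 change -1.36 ± 0.456, edgeR adjusted p = 0.0553), except without antibody library 2 (adjusted p = 0.0233). The surface list had 0 calls without LPS library 1, 1 without LPS library 2 or antibody library 1, and 5 (2 higher, 3 lower) without antibody library 3. It had 0 higher and 4 lower without LPS library 3 or antibody library 2.

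Of 25 cytokine receptors 3 were lower and 1 was higher, a total near the 15.1% called over all genes. The total was 2 without LPS library 1 or 3 and 1 without antibody library 1. Without antibody library 3 there were 2 higher and 3 lower. Il3ra, the specific chain of the interleukin-3 receptor, fell from 45.7, 55.9 and 39.2 CPM to 20.9, 18.7 and 18.7 CPM (log2 change -1.27 ± 0.256, edgeR adjusted p = 0.00566), a call that no single omission ended. Csf2rb, the chain it shares with the receptors of GM-CSF and interleukin-5, was higher, at 106, 146 and 188 CPM and 554, 208 and 286 CPM (1.25 ± 0.335), and was not called without LPS library 1 or 2, or antibody library 1 (adjusted p from 0.0678 to 0.109). Csf1r, the macrophage colony-stimulating factor receptor, was at 177, 179 and 328 CPM with LPS and 101, 93.7 and 123 CPM with the antibody (-1.11 ± 0.301), and was not called without LPS library 3, or antibody library 1 or 2 (adjusted p from 0.0729 to 0.107).

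Of the other lists, 4 of 18 glucocorticoid-responsive and clock genes were higher and 1 was lower: Fkbp5, a cochaperone of the glucocorticoid receptor, rose from 114, 113 and 132 CPM to 246, 214 and 183 CPM (log2 change 0.84 ± 0.145, edgeR adjusted p = 0.00272), and Dbp, a clock output gene, fell from 19, 12.3 and 9.73 CPM to 4.04, 4.11 and 4.38 CPM (-1.70 ± 0.299). Klf9 rose by 1.09 ± 0.264 and was not called without LPS library 1, or antibody library 1 (adjusted p from 0.0583 to 0.0744). The number higher was 1 without LPS library 1, 2 without LPS library 2 and 1 without antibody library 1. In 18 niche retention and homing genes 3 were lower and 1 was higher, in 21 immediate early genes 2 were lower and 0 higher, in 15 checkpoint genes 1 was lower and 0 higher, in 22 MHC class I genes 1 was higher and 0 lower (0 called with DESeq2's size factors, 0 higher and 1 lower with upper-quartile scaling), and in 8 metallothionein and zinc genes 1 was higher and 0 lower. Over all genes 8.64% were higher and 6.48% lower. Mt2, a metallothionein, was at 7.06, 1.69 and 0.731 CPM with LPS and 73.1, 11.5 and 5.59 CPM with the antibody and was not called. Of 21 cholesterol synthesis genes 0 were called by edgeR (5 at an unadjusted p below 0.05). The niche count was 2 without LPS library 1 or 2 or antibody library 1 or 3. The immediate early count was 1 without LPS library 1 or any 1 antibody library, except that LPS libraries 2 and 3 gave 2 and 3. The checkpoint count was 0 without any 1 of the LPS libraries or antibody library 1 and 3 and 4 without antibody libraries 2 and 3. MHC class I had 0 calls without LPS library 1 or 2 or antibody library 1, and the metallothionein list 2 without antibody library 2 or 3.

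Most genes that the antibody changed at 72 h had changed the same way with LPS alone at 24 h. The LPS libraries of 24 h were compared with PBS, a comparison that shares no library with the one at 72 h. It called 5616 genes (37.6%), with 2849 (19.1%) higher and 2767 (18.5%) lower, or 2030 higher and 3490 lower with upper-quartile scaling. Of the 1289 genes higher with the antibody at 72 h, 961 (74.6%) were also higher with LPS at 24 h, 2 were lower and 326 were not called. Of the 967 genes lower with the antibody, 615 (63.6%) were also lower with LPS at 24 h, 1 was higher and 351 were not called. Seen from the other list, 33.7% of the genes higher with LPS at 24 h were called higher with the antibody at 72 h (961, with 1 lower; median log2 change 0.39), and 22.2% of those lower at 24 h were called lower (615, with 2 higher; median -0.56). Among genes not called at 24 h the shares were 3.5% and 3.77%. The sum of shared genes, 1576 with all libraries, was 639 without LPS library 1 of 72 h, 974 without LPS library 2 and 1047 without antibody library 3. It was 362 with a 2-fold minimum in both comparisons and 304 with the replicate block. By correlation, antibody libraries 1 and 3 of 72 h were closest to antibody libraries of 24 h. The part of this likeness in the overlap was not tested. The count at 24 h was 3361 without LPS library 1 of 24 h, and 1620 genes were then shared.

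The growth genes illustrate this. LPS at 24 h raised Ncl by 1.20, Slc7a5 by 1.21, Asns by 1.53 and Ldha by 1.59 on the log2 scale against PBS. Ncl was at 4339, 3099 and 3176 CPM with LPS at 24 h and 3229, 2919 and 3005 CPM with LPS and antibody at 72 h. In the ribosome biogenesis list LPS at 24 h gave 21 of 24 genes higher and 2 lower, and in the amino acid list 18 of 26 higher and 0 lower. Among the genes that fell, LPS at 24 h lowered Gsn (-1.46), Mirt1 (-2.08), H2-Ob (-2.73) and 12 of the 16 dendritic cell genes. Of the S phase genes 21 of 26 were higher with LPS at 24 h and 2 of 26 with the antibody at 72 h. Of the stem cell factors 19 of 29 were lower with LPS at 24 h and 3 of 29 with the antibody at 72 h. The difference between those changes was not tested.

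**Figure D5:**
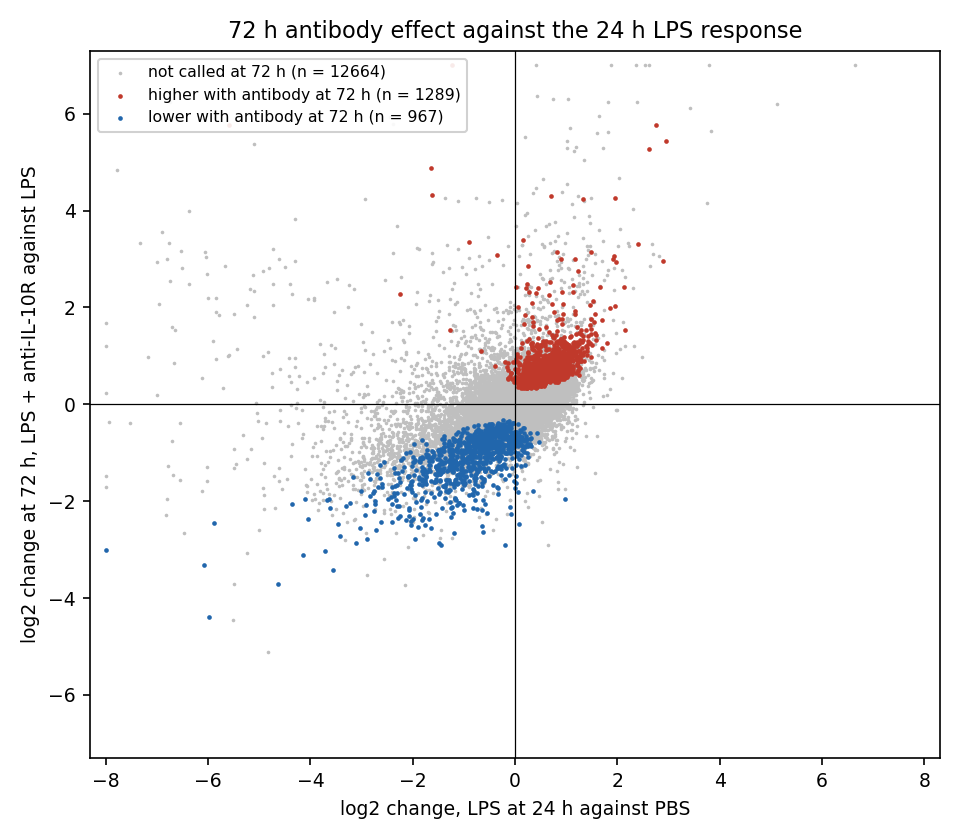
Each point is a gene: log2 change of LPS at 24 h against PBS (horizontal) and of the antibody at 72 h (vertical), with points beyond the axes drawn at the edge. Genes higher with the antibody (red, 1289) lie mostly to the right of 0 and genes lower with it (blue, 967) mostly to the left.

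No gene was called for the antibody at 24 h. With LPS in both groups, 0 of 14920 genes (0%) were called at 24 h by edgeR, 273 had an unadjusted p below 0.05, DESeq2 called 1 gene and voom 0. That 273 became 165 without antibody library 1 of 24 h and 982 without antibody library 2. On the second principal component of all 17 libraries, the antibody libraries of 24 h scored 59.1, 0.937 and -56. Those of LPS at 24 h scored -13.3, -9.12 and 16.8. With such a spread the lack of calls does not show a lack of effect. The log2 changes at 24 h were -0.35 for Ncl, -0.14 for Slc7a5 and 0.02 for Asns. The difference between the antibody effects at 72 h and 24 h was tested as an interaction term. It was called for 947 genes (6.35%), with 601 (4.03%) more positive and 346 (2.32%) more negative at 72 h (435 and 440 with upper-quartile scaling). This term contains the 72 h effect and uses its 6 libraries, so it is no independent support for the 72 h calls. The count was 286 when only the groups compared were fitted and 0 with the replicate block. The term uses the antibody libraries of both times, whose likeness is given above. In the ribosome biogenesis list 17 of 24 members were more positive and 1 more negative, in the amino acid list 16 of 26 and 0, and in glycolysis 2 of 20 and 0. In the dendritic cell list 3 of 16 were more negative. The count of 947 rested on several libraries. It was 231 without LPS library 1, 473 without LPS library 2 and 513 without antibody library 3 of 72 h, and 376, 1544, 291 and 576 without antibody library 1, antibody library 2, antibody library 3 and LPS library 3 of 24 h.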

How the data were processed

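Gene expression was measured by RNA sequencing of polyadenylated RNA in 17 libraries of sorted mouse hematopoietic stem and progenitor cells. The authors deposited raw counts per gene, in 1 table of 35321 genes. The submitters' processing notes name HISAT2 2.2.0, Subread with featureCounts 2.1.1, R 4.3.2, DESeq2 and the GRCm38 build. The annotation, the use of strand and the treatment of reads with several matches are not given in the sources used here.

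Libraries were grouped by their titles. Genes were kept by edgeR's filterByExpr (minimum count 10, minimum total 15), which left 14920 genes with 99.9% of the counts, and 13321 genes had 0 counts in every library. Counts were scaled by TMM, and edgeR 4.0.16 (R 4.3.3) fitted a quasi-likelihood model with 1 mean per group to all 17 libraries. P-values are two-sided and Benjamini-Hochberg adjusted over all genes tested, with a threshold of 0.05. The standard error of a log2 change is the change divided by the square root of its F statistic, an approximation. A single value compared over 3 against 3 libraries could not have an exact permutation p below 0.1. Alternatives used DESeq2 1.42.0, limma 3.58.1 (voom), other scalings and filters, a replicate block and the omission of libraries. The fit was tested on simulated data drawn with 1 spread per gene, shared by all groups. That test does not cover antibody libraries that differ from each other more than the LPS libraries do.

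The 34 gene lists, and the groups described, were chosen with earlier results of these data known. Genes named were the 12 called genes of at least median expression, with libraries that do not overlap, that changed most in each direction, the 5 with the smallest p-values in each direction, up to 4 per list with the smallest p-values, and Il10ra, Il10rb, Il10, Stat3, Socs3, Ly6a, Kit, Cd34, Mecom, Hlf, Meis1, Procr and Cxcl10. The median expression cut used the mean over all 17 libraries, antibody libraries included. A gene could therefore pass it through the libraries where it was high, as Cfb and Gm20547 were in antibody library 1. Other list members were named after their values were seen. Gene positions are from GENCODE M21 and promoter sequences from RefSeq, both on GRCm38. Of the genes whose values are given, many overlap another annotated gene, and reads in such overlaps cannot be told apart without strand.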

Additional observations from a re-analysis of the deposited data

Results flagged for a closer look

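For 23 of the 45 tested genes named by size, by p-value or for the receptor and stem cell markers, the effect of the antibody at 72 h differed from that at 24 h by edgeR's interaction term (adjusted p below 0.05), against 6.35% of all genes. Most of the 45 were chosen for their 72 h effect, which this term contains, so the count is a description. The differences that follow are the log2 change at 72 h minus that at 24 h. Among genes that rose at 72 h the difference was 2.12 for Asns, 1.74 for Slc7a5, 1.98 for Snhg3, 1.84 for Gm17300, 1.20 for Orc2, 1.15 for Psmd1, 0.95 for Plaa, 0.92 for Iars2 and 0.89 for Twf1. Among genes that fell it was -2.80 for Mirt1, -2.68 for Ahnak, -2.58 for Pld4, -2.52 for 4833407H14Rik, -2.46 for Ypel3, -2.27 for Gsn, -1.97 for Smim24, -1.96 for Itgb7, -1.93 for H2az2, -1.72 for Fbxw4, -1.71 for Grcc10 and -1.57 for Lat2.

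Both chains of the IL-10 receptor are among the 23. The difference was -1.18 for Il10rb (edgeR adjusted p = 0.0452), which was called at 72 h, and -2.12 for Il10ra (edgeR adjusted p = 0.0258), which was not. Il10ra was at 11.2, 22.2 and 14.1 CPM with LPS and 47.5, 17.6 and 35 CPM with LPS and antibody at 24 h, in libraries 1, 2 and 3. Its change at 24 h was positive (1.07) and not called.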

How the results depend on the processing

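The 2256 genes called at 72 h became 4433 with voom and sample weights, 711 with a 2-fold minimum, 1123 when the 72 h groups were fitted alone, 344 with a replicate block and 1 without antibody libraries 1 and 3, and ranged from 769 to 2279 without 1 library. At 24 h the antibody count of 0 became 1 with DESeq2. The difference between times (947) became 617 without a filter, 1709 with DESeq2, 1585 with voom, 552 with a 2-fold minimum, 286 with only the compared groups and 0 with the replicate block (2451 at an unadjusted p below 0.05), and ranged from 231 to 1544. LPS at 24 h (5616) became 3098 in genes above the median expression and 2043 with a 2-fold minimum, and ranged from 3361 to 5443. The omission of both antibody libraries, and of the 24 h LPS library 1 from the shared fit (2810 genes at 72 h), were chosen after seeing the data. Of 2028 alternative values of 128 genes, 1586 kept their direction and side of the threshold, 398 lost the call, 35 gained it and 9 turned: Gbp2 with voom (-0.33), Mecom (0.024), Cxcl10 (-0.039), Cxcl9 (-0.56) and Gbp2 (-0.99) without antibody libraries 1 and 3, and Kit (-0.16 to 0.47), Cxcl10 (-0.75 to 7.0), Cxcl9 (-1.47 to 6.35) and Gbp2 (-1.12 to 3.90) in the range over single omissions. None of these genes was called with all libraries. The cause of these shifts was not tested.

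Same-numbered libraries of the 72 h groups deviated together with correlations of 0.267, 0.0108 and 0.319. LPS libraries 1 and 3 matched the antibody library of the same number best, and LPS library 2 matched antibody library 3. Whether the numbers pair the libraries is therefore not settled. The replicate block's 344 calls included 312 of the calls without it. With 3 libraries per group and totals of 10516722 to 14805232 counts, genes near the count minimum have wide errors.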
